A study of Schizosaccharomyces pombe with 6 samples.

Results

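Newly made RNA of the fission yeast Schizosaccharomyces pombe was compared 4.5 h after depletion of the elongation factor Spt5 began with RNA of the same strain taken at 0 h, across all protein-coding transcription units and the pathways they belong to. The comparison rests on 4 of the 6 libraries of the study: 2 labelled 4.5 h and 2 labelled 0 h. The other 2 were taken at 2.5 h and enter only the estimate of the spread. All 6 came from strain ASP167, which is haploid and of mating type h-, with the allele spt5::hphMX6-Pnmt81-spt5+-V5-IAA17-kanMX6 at the spt5 locus. There spt5 is transcribed from Pnmt81, a promoter that thiamine shuts off, and the Spt5 protein ends in a V5 tag and the IAA17 degron. At the ade6 locus stands ade6::ade6+-Padh15-skp1-OsTIR1-natMX6 followed by Padh15-skp1-AtTIR1-2NLS-9myc, so that plant auxin receptors TIR1, each fused to Skp1, are made from the promoter Padh15. The strain also carries the deletion ura4-D18. Cells grew at 30 degrees in the minimal medium EMM. Cells of 4.5 h had thiamine and the synthetic auxin NAA for that long, and cells of 0 h are those of the point at which both were added. In each, RNA made during a 10 min pulse of 5 mM 4-thiouracil was purified and sequenced. The labels call the libraries of a time point biological replicates but say no more on which cultures they came from, and all carry the same strain background. No culture without the additions and no spike-in was used here, so the effects of losing Spt5, of thiamine, of NAA and of the hours in culture cannot be told apart, and every level is relative to the rest of its own library.

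Spt5 is a conserved protein that, with its small partner Spt4, forms the factor DSIF and travels with RNA polymerase II along genes. It helps the enzyme to transcribe through nucleosomes, and its phosphorylated tail is a landing site for other elongation factors. Auxin makes the TIR1 receptor bind the degron, and the SCF ubiquitin ligase that holds Skp1 then marks the tagged protein for destruction. The pulse label enriches RNA that was made within minutes, so the counts stand closer to transcription than those of total RNA do.

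The counts assigned to units added up to 13598877 and 14559076 in the libraries of 4.5 h, against 29268534 and 35673601 in those of 0 h. Of 4448 coding units 4437 had enough counts to be tested, of 5208 tested in all. Levels below are in CPM, read counts divided by the depth of their library after TMM scaling, which sets the middle of the libraries to the same level. The spt5 unit (SPAC23C4.19, plus strand of chromosome I from 1063747 to 1066940 in ASM294v2) had 98.2 and 92.3 CPM at 4.5 h, against 1045 and 721 CPM at 0 h. Both 4.5 h libraries lay far below both 0 h libraries, with a log2 fold change of -3.21 (SE 0.23, adjusted p = 0.00383) by the quasi-likelihood test of edgeR, adjusted after Benjamini and Hochberg, the test behind every adjusted p of a single unit here. Spt4 is encoded in a unit that it shares with a neighbouring gene, at 247 and 244 CPM at 4.5 h, against 259 and 199.5 CPM at 0 h. That unit did not pass (log2 fold change 0.10, adjusted p = 0.722). The skp1 unit, whose sequence the strain also carries in both fusions, had 244 and 293 CPM at 4.5 h, against 491 and 182 CPM at 0 h, so that the 4.5 h libraries lay between the 0 h libraries, and the ade6 unit had 102 and 104 CPM at 4.5 h, against 218 and 124 CPM at 0 h. Neither passed (adjusted p = 0.674 and 0.147).

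The 0 h libraries differed from each other far more than the 4.5 h libraries did. Between the 4.5 h libraries 19 coding units were at least 2-fold apart (0.428% of those tested), against 513 (11.6%) between the 0 h libraries. Genes of cytoplasmic ribosomal proteins, the RNA-binding building blocks of the ribosome, set the 0 h libraries apart most. All 5 coding units with the largest difference between the 0 h libraries were of this kind: rpp202, rpp201, rpl3802, rps1002 and rpl4301. The unit of rpp202, a ribosomal stalk protein, had 60.9 and 51.8 CPM at 4.5 h, against 252 and 15.8 CPM at 0 h, and 4.5 h lay between the 0 h libraries. For rpp201, its near copy, the values were 139 and 157 CPM at 4.5 h, against 323 and 28.4 CPM at 0 h. Summed over the 138 ribosomal protein units, the level was 25721 and 23810.3 CPM at 4.5 h, against 38941 CPM in replicate 1 and 8034 CPM in replicate 2 of 0 h. Each comparison is therefore given against both 0 h libraries and also against each of them alone. What sets the 0 h libraries apart was not tested.

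With both 0 h libraries in the fit, 692 coding units were called at an adjusted p under 0.05 (15.6% of 4437), of which 323 were higher at 4.5 h (7.28%) and 369 lower (8.32%). Over all units, noncoding ones included, 932 passed (17.9%). The median change was -0.03 on the log2 scale over all coding units, -0.07 against replicate 1 and 0.07 against replicate 2 of 0 h. Of the called coding units 158 rose and 199 fell at least 2-fold, and the median was 0.99 among those that rose and -1.04 among those that fell. All 692 had the same sign against each 0 h library alone. They were called from these same libraries, so this is no independent check. The separate fits with only replicate 1 or only replicate 2 of 0 h passed 304 of the rises against both (6.85% of the units tested) and all 369 falls (8.32%). A fit with a single 0 h library holds no spread within 0 h and takes it from the other time points. Such fits called more coding units than the main fit, so passing them, here and below, is no stricter check. Over all coding units, 3042 had the same sign against each 0 h library and 1395 had opposite signs. Both 4.5 h libraries lay above both 0 h libraries in 1323 coding units (29.8%) and below both in 1338 (30.2%).

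How many units passed depended on the libraries more than on any other setting. Leaving out replicate 1 or replicate 2 of 4.5 h, 26 or 11 coding units were higher and 27 or 17 lower. When instead replicate 1 or replicate 2 of 0 h was left out, 859 or 755 were higher and 988 or 1043 lower. Leaving out either library of 2.5 h left 90 higher and 127 lower. No direction changed among the 692 coding calls under the 15 other settings in which they were tested. Those settings refit the counts that gave the calls, so a kept direction is no independent check. The naming rule holds 181 called units, of which 24 still passed without replicate 1 of 4.5 h and 10 without replicate 2. Those left without replicate 2 were spt5, hsp9, obr1, pbi2, mbf1, atp15, thi9, bsu1, thi4 and opa3. Those left without replicate 1 were the same genes except atp15, and mug2, ddr48, trx1, mrps16, lyr3, thi201, alr2, mmt1, hhf3, hta1, tms1, fnx2, mfm3, lsm4 and pof10. With library totals in place of TMM scaling 206 were higher and 396 lower, so that rises made up 34.2% of the coding calls in place of 46.7%.

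**Figure D1:**
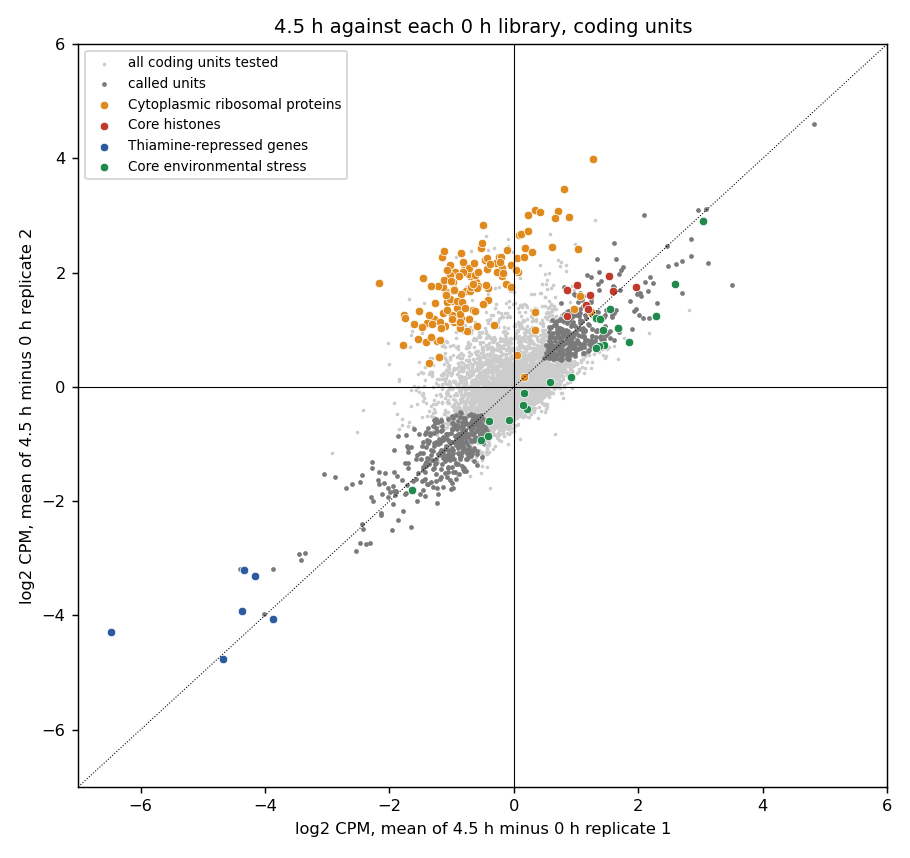
Each point is a coding unit, with the mean log2 CPM of 4.5 h minus that of 0 h replicate 1 on the x axis and minus that of 0 h replicate 2 on the y axis. Ribosomal protein units (orange) lie mostly left of 0 on the x axis and above 0 on the y axis, with medians of -0.76 and 1.76. The histone, stress and thiamine-repressed units that passed have the same sign on both axes, as all called coding units do. Some of them lie off the diagonal, as thi2 does at -6.48 and -4.29.

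The AACCCT box is a sequence that the histone gene promoters of fission yeast share, and it is shown here because the histone genes were the list in which every measured member rose. Each promoter below is 60 bases around the box, read 5′ to 3′ on the gene's strand from the assembly ASM294v3, with the box in capitals; AGGGTT is the same box on the other strand. The first is of hht1, which encodes histone H3, at I:4699628-4699687 on the plus strand. The second is of hht2 at II:1365036-1365095 on the plus strand, and the next of hht3 at II:3529603-3529662 on the minus strand, both also for H3. The last are of hta1 at III:1412276-1412335 and of hta2 at I:4053347-4053406, both on the minus strand and both for H2A.
hht1: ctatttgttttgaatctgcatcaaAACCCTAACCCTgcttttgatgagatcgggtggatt
hht2: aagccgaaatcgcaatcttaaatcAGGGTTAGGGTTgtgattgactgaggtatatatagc
hht3: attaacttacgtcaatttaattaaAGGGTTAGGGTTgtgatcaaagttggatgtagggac
hta1: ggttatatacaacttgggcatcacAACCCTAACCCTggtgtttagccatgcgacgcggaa
hta2: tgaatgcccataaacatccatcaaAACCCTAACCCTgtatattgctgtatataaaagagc
Each holds the box in a tandem pair. Of the 5112 protein-coding genes, 9.70% hold AACCCT on either strand between 250 bases before and 50 after the gene start, and all 9 core histone genes do. The 4 pairs hht1 and hhf1, hht2 and hhf2, hht3 and hhf3, and hta1 and htb1 are divergent and share a box region, so the 9 genes hold 5 such regions. A match of letters says nothing of what binds there.

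Core histones, which form the nucleosome, rose together: 9 of 9 units passed, against 7.28% of all coding units higher. Their median log2 fold change was 1.36, with 1.19 against replicate 1 and 1.68 against replicate 2 of 0 h, beside -0.03 over all coding units. The single H2B gene htb1 had 3328 and 3832 CPM at 4.5 h, against 914 and 1061 CPM at 0 h, and both 4.5 h libraries lay well above both at 0 h (log2 fold change 1.86, SE 0.24, adjusted p = 0.00788). Its divergent partner hta1 had 1021 and 1167 CPM at 4.5 h, against 379 and 284 CPM at 0 h (log2 fold change 1.72, SE 0.20, adjusted p = 0.00681). The other H2A gene, hta2, lay at 550.4 and 659 CPM at 4.5 h, against 263 and 235 CPM at 0 h (log2 fold change 1.28, SE 0.18, adjusted p = 0.00989). Among the H4 genes hhf3 had the largest change, with 243 and 266 CPM at 4.5 h, against 83.9 and 79.2 CPM at 0 h (log2 fold change 1.64, SE 0.16, adjusted p = 0.00465). The other H4 genes, hhf1 and hhf2, and the H3 genes hht1, hht2 and hht3 had log2 fold changes of 1.21, 1.05, 1.29, 1.36 and 1.41. In all 9 genes both 4.5 h libraries stood above both 0 h libraries. Summed over the list the level was 6910.3 and 8043 CPM at 4.5 h, against 2570.3 and 2323 CPM at 0 h. The H3 genes are close copies of each other, as are the H4 genes, and how reads that match several copies were counted is not given in the sources used here, so the split among copies is uncertain. All 9 also passed without either 0 h library, 6 without either 2.5 h library, 2 (hta1 and hhf3) without replicate 1 of 4.5 h and 0 without replicate 2 of 4.5 h. In that last fit the median was 1.24 and 9 of 9 had an unadjusted p under 0.05 by edgeR, and DESeq2 on all libraries called all 9.

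**Figure D2:**
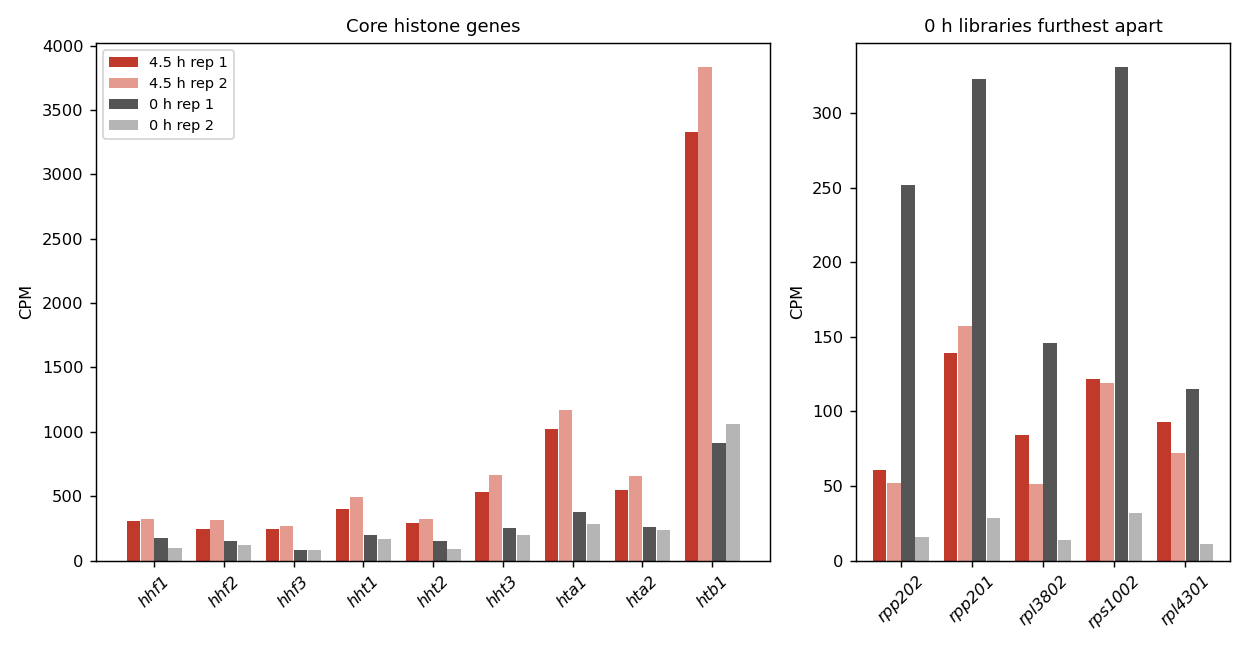
CPM in each of the 4 libraries for the 9 core histone genes (left) and for the 5 coding units furthest apart between the 0 h libraries (right). Every histone gene has both 4.5 h bars (red) above both 0 h bars (grey), whereas the ribosomal protein genes have both 4.5 h bars between the 0 h bars, as in rpp202 with 61 and 52 CPM, against 252 and 16 CPM.

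Among the 15 units for histone chaperones and regulators 3 rose and none fell (2 lower at an unadjusted p under 0.05, 1 lower by DESeq2). They were pht1, the variant H2A.Z (1.18), spt2, a histone chaperone of transcribed genes (1.02), and ams2, a GATA-type factor that activates histone genes in S phase (0.82, adjusted p = 0.0302). The ams2 unit had 247 and 291 CPM at 4.5 h, against 134 and 171 CPM at 0 h. The median of this list was 0.02, with -0.08 against replicate 1 and 0.19 against replicate 2 of 0 h. The G1/S factor MBF switches on DNA synthesis genes. The list of its genes had a median of 0.33, with 0.41 against replicate 1 and 0.39 against replicate 2 of 0 h. Of its 24 units 5 were higher and 1 lower. Those that rose were spd1, an inhibitor of ribonucleotide reductase (1.19), the MBF repressor yox1 (1.13), the replication gene psf2 (0.98), cdt2 (0.73) and dfp1 (0.72), and the MBF subunit gene res1 fell, with 88.2 and 71.3 CPM at 4.5 h, against 180.4 and 243 CPM at 0 h (log2 fold change -1.41, SE 0.20, adjusted p = 0.0106). Of these, cdt2 did not pass against both 0 h libraries alone. In the fits that leave out replicate 1 or 2 of 4.5 h no MBF or chaperone unit passed (8 and 4 MBF units higher at an unadjusted p under 0.05). Without either library of 2.5 h 1 MBF unit and 1 chaperone unit rose, and leaving out replicate 2 of 0 h gave 9 rises and 4 falls of MBF units. The letters ACGCGT, the binding box of MBF, stand in 8 of 24 promoters of the list and in 3.25% of all.

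Of the 15 largest rises among units that have a symbol and averaged at least 50 counts, 5 were of genes in the stress lists: hsp9, obr1, hsp16, trx1 and tpx1. The stress lists hold genes that many stresses switch on through the kinase Sty1 and the factor Atf1, genes of the peroxide factor Pap1, and heat shock genes. Among those 15, ranked by the smaller of the differences from the 0 h libraries, hsp9 came first, a small heat shock protein gene with 2376 and 2239 CPM at 4.5 h, against 281 and 308 CPM at 0 h. Both libraries of 4.5 h were several-fold above both of 0 h (log2 fold change 2.97, SE 0.22, adjusted p = 0.00383), by 3.04 against replicate 1 and 2.91 against replicate 2 on the log2 scale. Next came obr1, a quinone oxidoreductase of the Pap1 response, with 2103 and 2012 CPM at 4.5 h, against 374 and 371 CPM at 0 h (log2 fold change 2.47, SE 0.19, adjusted p = 0.00383). The other small heat shock protein gene among them, hsp16, had 2029 and 2249 CPM at 4.5 h, against 354 and 612 CPM at 0 h. Its 0 h libraries were farther apart, so that it was 2.60 higher against replicate 1 and 1.80 against replicate 2 (log2 fold change 2.15, SE 0.29, adjusted p = 0.00936).

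Of 22 core stress units 10 rose and 2 fell, with a median of 1.01 (1.31 against replicate 1 and 0.70 against replicate 2 of 0 h). Beside hsp9 and hsp16 the rises were srx1, the sulphiredoxin that repairs peroxiredoxin (1.67), plr1, a pyridoxal reductase (1.45), gst2, a glutathione transferase (1.32), gpx1, a glutathione peroxidase (1.28), gpd1, which makes glycerol phosphate (1.26), trr1, thioredoxin reductase (1.19), the catalase gene ctt1 (1.04) and ish1 (1.00), whose unit holds a second gene. The catalase unit had 4555 and 4577 CPM at 4.5 h, against 1679.7 and 2751 CPM at 0 h (log2 fold change 1.04, SE 0.27, adjusted p = 0.0473). The hexitol dehydrogenase gene tms1 fell, with 8.60 and 4.71 CPM at 4.5 h, against 20.0 and 22.4 CPM at 0 h (log2 fold change -1.68, SE 0.30, adjusted p = 0.0176), and so did gld1, a glycerol dehydrogenase (-0.75). The genes of the pathway's own regulators did not pass: sty1 was at -0.51, the kinase gene wis1 above it at 0.02, atf1 at -0.12 and its partner pcr1 at -0.35, with adjusted p of 0.0682, 0.959, 0.768 and 0.287. Between the 0 h libraries themselves the list's median difference was -0.48, replicate 1 below replicate 2. In the fits that leave out replicate 1 or 2 of 4.5 h 1 rise was left in each case, without either library of 2.5 h 5, and with library totals 7. Leaving out replicate 1 of 0 h gave 11 rises and 7 falls, and leaving out replicate 2 of 0 h 14 and 4.

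Of 18 units of the Pap1 response to peroxide 10 rose and 1 fell (median 0.92; 1.13 against replicate 1 and 0.81 against replicate 2 of 0 h). The thioredoxin gene trx1 had 1421 and 1475 CPM at 4.5 h, against 430.4 and 339.8 CPM at 0 h (log2 fold change 1.91, SE 0.18, adjusted p = 0.00465). Its peroxidase partner tpx1 had 2459.6 and 2877 CPM at 4.5 h, against 849 and 562 CPM at 0 h (log2 fold change 1.92, SE 0.25, adjusted p = 0.00844), in a unit that also covers an annotated noncoding RNA. In both genes each 0 h library lay below both libraries of 4.5 h. The factor gene prr1 (1.25) and the superoxide dismutase gene sod1 (0.79) rose too. The remaining 5 rises, srx1, gst2, gpx1, trr1 and ctt1, are also members of the core stress list. The gene gcs1, for the first enzyme of glutathione synthesis, fell (-0.62). Leaving out replicate 1 or 2 of 4.5 h left 2 and 1 rises, and leaving out either library of 2.5 h left 5. Among the 5 Hsp31 units, a glyoxalase family, hsp3101 alone passed (1.13, adjusted p = 0.0206).

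At an unadjusted p under 0.05 by edgeR 9 of 22 heat shock and chaperone units were higher and 0 lower, and DESeq2 called 8 and 0. In the main fit 5 rose and none fell, with a median of 0.30 (0.40 against each 0 h library alone). Beside hsp9 and hsp16 these were ssa1, an Hsp70 chaperone, with 5014 and 5046 CPM at 4.5 h, against 1824 and 2403 CPM at 0 h (log2 fold change 1.25, SE 0.22, adjusted p = 0.0169), its J-domain partner psi1 (0.99) and wos2, a partner of Hsp90 (0.88). The promoters of hsp16, ssa1 and psi1 are shown because they are those of the 5 that hold GAANNTTC, a pair of inverted heat shock units, given in capitals; all are on the minus strand, at II:2661054-2661109, I:2297991-2298046 and III:2195566-2195660 of ASM294v3.
hsp16: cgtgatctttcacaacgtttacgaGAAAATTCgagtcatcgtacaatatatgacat
ssa1: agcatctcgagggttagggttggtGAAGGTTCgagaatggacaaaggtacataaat
psi1: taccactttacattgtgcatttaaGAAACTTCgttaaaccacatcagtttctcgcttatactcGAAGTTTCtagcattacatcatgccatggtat
These letters stand in 12 of the 22 promoters of the list and in 11.1% of all promoters, so members that did not pass hold them as well. The core TGACGT of the Atf1 element stands in 6 of 22 core stress promoters, in 3 of the 10 that rose (ctt1, gpd1 and ish1) and in 5.91% of all. The hsp9 unit alone of the 22 passed without replicate 1 or 2 of 4.5 h, and without either library of 2.5 h 2 did.

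Thiamine, added with the auxin, shuts off the genes that make and import it, and 6 of 6 measured members of that list fell, with a median of -4.00. The transporter gene thi9 had 91.8 and 45.2 CPM at 4.5 h, against 1647 and 1757 CPM at 0 h (log2 fold change -4.64, SE 0.41, adjusted p = 0.0046). The thiazole synthase gene thi2 fell most, with 55.5 and 35.0 CPM at 4.5 h, against 3947 and 866 CPM at 0 h (log2 fold change -5.73, SE 0.94, adjusted p = 0.0206), and its 0 h libraries were 2.19 apart on the log2 scale. The synthesis genes thi201 and thi4, bsu1, for a vitamin importer, and pho4, for an acid phosphatase, were at -4.09, -3.80, -3.91 and -3.85. The drop of spt5, at -3.21 under its thiamine-repressible promoter, was smaller than each of these fitted values, but no test of that difference was run. Genes without a symbol whose product in the reference annotation also has to do with thiamine were seen among the largest falls, and were chosen after their values were known: SPCC794.03, a thiamine transporter, at -3.94, and SPBC1604.04, a transporter of thiamine pyrophosphate, at -3.14. The unit of thi7, which is not on the list, was at -0.12 and did not pass, and its libraries of 4.5 h and 0 h overlapped. The promoter source gene nmt1 and ura4 have no unit among those analysed here. Of the 6, 4 passed without replicate 1 of 4.5 h, 3 when replicate 2 of 4.5 h was left out and 5 without either library of 2.5 h.

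**Figure D3:**
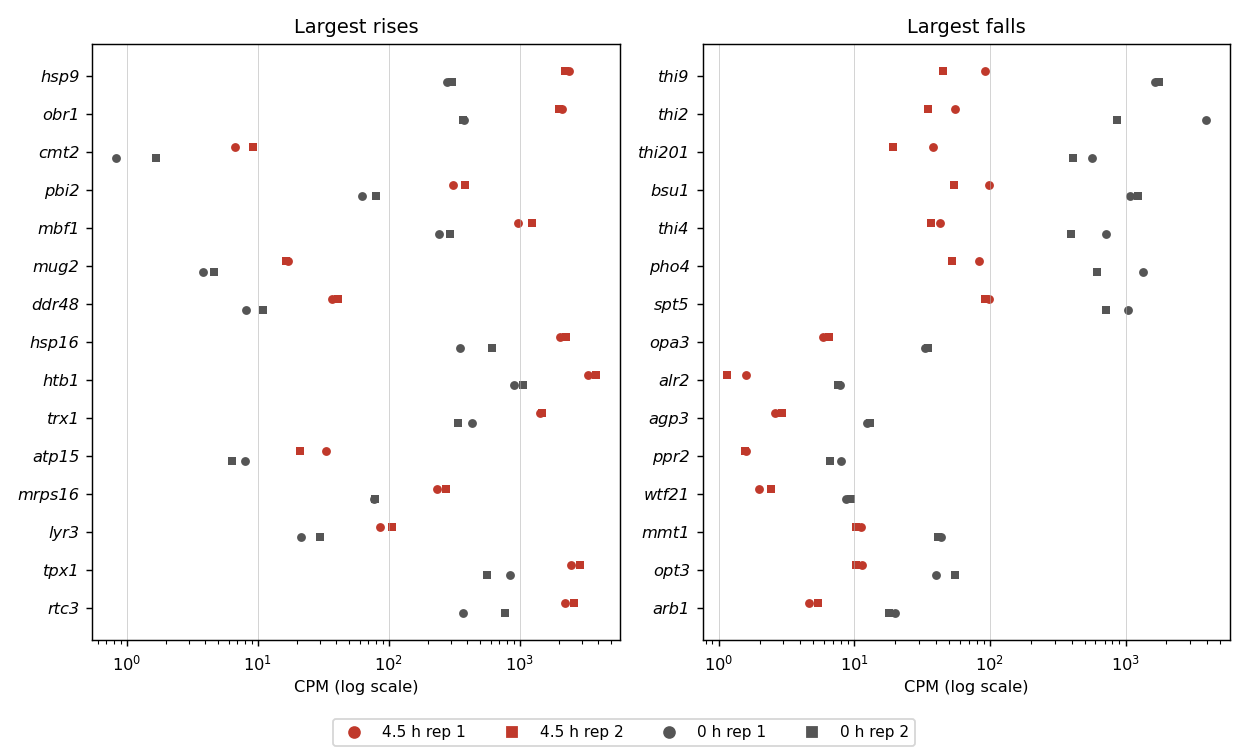
CPM on a log scale in each library for the 15 coding units with the largest rise (left) and the 15 with the largest fall (right) among those that have a symbol, passed the test and averaged at least 50 counts, 4.5 h in red above 0 h in grey, replicate 1 as circles and replicate 2 as squares. In each of the 30 rows the red and the grey points do not overlap, which the choice of these units required.

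The other large rises had varied roles. The unit of cmt2, a methyltransferase, had few counts, at 6.77 and 9.28 CPM at 4.5 h, against 0.832 and 1.68 CPM at 0 h (log2 fold change 2.64, SE 0.42, adjusted p = 0.0127). The proteinase inhibitor gene pbi2 had 313 and 382 CPM at 4.5 h, against 62.2 and 79.6 CPM at 0 h (log2 fold change 2.29, SE 0.19, adjusted p = 0.00435). The transcription coactivator gene mbf1, which is no part of the MBF complex, had 977 and 1247 CPM at 4.5 h, against 243 and 292 CPM at 0 h (log2 fold change 2.06, SE 0.20, adjusted p = 0.0046). The rest were rtc3 (2.09), ddr48 (2.02), the meiotic gene mug2 (1.98), atp15, a small subunit of the mitochondrial ATP synthase (1.92), the LYR family gene lyr3 (1.91) and mrps16, of the mitochondrial ribosome (1.71). The 0 h libraries lay close together in some of these and apart in others: in mrps16 they were at 77.4 and 78.7 CPM, and in rtc3 at 370.1 and 772 CPM. The largest rise of all coding units was that of SPAC9G1.14, a protein with no known role and no symbol, which was singled out after its values were seen, with 31.8 and 39.1 CPM at 4.5 h, against 1.16 and 1.36 CPM at 0 h (log2 fold change 4.80, SE 0.25, adjusted p = 0.00383).

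Among units with a symbol the largest falls beyond the thiamine genes and spt5 were smaller and often of little-transcribed genes. The mitochondrial lipid regulator gene opa3 had 5.86 and 6.50 CPM at 4.5 h, against 33.4 and 34.9 CPM at 0 h (log2 fold change -2.46, SE 0.20, adjusted p = 0.00383). The mitochondrial iron transporter gene mmt1 had 11.2 and 10.2 CPM at 4.5 h, against 43.7 and 41.2 CPM at 0 h (log2 fold change -1.99, SE 0.17, adjusted p = 0.00435). In both genes the 0 h libraries lay close together and several-fold above those of 4.5 h. The alanine racemase gene alr2 (-2.49), the amino acid transporter gene agp3 (-2.21), ppr2, of an RNA-binding family in mitochondria (-2.19), wtf21, of the meiotic drive family (-2.04), the oligopeptide transporter gene opt3 (-2.13) and arb1, which acts with Argonaute (-1.93), complete the 15. Among these 8, opa3, alr2 and mmt1 still passed without replicate 1 of 4.5 h, and without replicate 2 only opa3 did.

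Nutrient uptake and synthesis genes held more falls than rises. Of the 171 coding units whose product names a transporter, permease or import carrier 46 fell (26.9%, against 8.32% of all coding units) and 12 rose (7.02%), with a median of -0.42. That median was -0.38 against replicate 1 and -0.33 against replicate 2 of 0 h alone. Without replicate 1 or 2 of 4.5 h 9 and 6 fell and 3 and 1 rose. This word group was chosen after counts of the other lists were seen, it holds some of the thiamine genes, and other membership rules were not tried. Of 11 nitrogen uptake units 4 fell and none rose (median -0.80; 6 lower and 1 higher at an unadjusted p under 0.05, 5 and 1 by DESeq2): agp3, fnx2 (-1.91), the proline permease gene put4 (-0.99) and the basic amino acid permease gene cat1 (-0.92). The fnx2 unit had 21.5 and 19.3 CPM at 4.5 h, against 83.0 and 69.9 CPM at 0 h. Of 11 pyrimidine units 3 fell and none rose (6 and 0 at an unadjusted p under 0.05, 5 and 0 by DESeq2): urg1 (-2.11), urg2 (-1.94) and fur4, the permease for uracil (-0.54, adjusted p = 0.0404). The fur4 unit had 199 and 203 CPM at 4.5 h, against 300.2 and 286 CPM at 0 h, so that both 4.5 h libraries lay below both at 0 h. Of these 22 units fnx2 alone passed without replicate 1 of 4.5 h, none when replicate 2 of 4.5 h was left out, and without either library of 2.5 h 3 nitrogen uptake units and no pyrimidine unit. Whether the label entered cells equally at both times was not tested.

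Iron and copper genes had 5 of 17 units lower and 1 higher, with a median of -0.70 (-0.44 against replicate 1 and -0.93 against replicate 2 of 0 h). The vacuolar transporter gene abc3 had 163 and 190.2 CPM at 4.5 h, against 518 and 706 CPM at 0 h (log2 fold change -1.79, SE 0.22, adjusted p = 0.00713). The copper transporter genes ctr4 and ctr5, whose proteins form 1 complex, were at -1.43 and -1.58, the ferric reductase gene frp2 at -1.68 and the siderophore synthesis gene sib2 at -1.16. In these 5 genes the fall was smaller against replicate 1 of 0 h than against replicate 2. The gene isa1, which helps to build iron-sulphur clusters, rose (1.04). None of the 17 passed without replicate 1 or 2 of 4.5 h (6 lower and 1 higher at an unadjusted p under 0.05 in each case), without either library of 2.5 h 2 fell, and without replicate 1 or 2 of 0 h 13 and 8 fell.

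Amino acid synthesis had 10 of 61 units lower and 1 higher, yet its median of -0.45 depended on the 0 h library: it was -0.82 against replicate 1 and -0.02 against replicate 2 of 0 h. Glutamate synthase, glt1, had 1988 and 1616 CPM at 4.5 h, against 5249.7 and 4075 CPM at 0 h (log2 fold change -1.37, SE 0.23, adjusted p = 0.0149). Tyrosine synthesis gene tyr1 had 20.7 and 18.7 CPM at 4.5 h, against 42.5 and 41.8 CPM at 0 h, with 0 h libraries close together (log2 fold change -1.10, SE 0.16, adjusted p = 0.0109). The other falls were lys1 (-1.36), arg4 (-1.21), met17 (-1.15), the proline genes pro2 and pro1 (-1.04 and -0.94), trp1 (-0.91), met3 (-0.82) and his3 (-0.67). The sulphate pathway gene met16 rose (0.76). With replicate 1 of 0 h left out 13 units rose and 15 fell, with replicate 2 of 0 h left out 3 rose and 45 fell, and without replicate 1 or 2 of 4.5 h none passed in the fit, although 10 were lower at an unadjusted p under 0.05 in each case, and 0 and 1 higher.

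Mating genes, which yeast switches on when nitrogen runs low, had 6 of 16 units lower and 1 higher (median -1.08; -1.02 against replicate 1 and -0.76 against replicate 2 of 0 h). The MAP kinase gene spk1 had 14.4 and 8.21 CPM at 4.5 h, against 80.1 and 32.5 CPM at 0 h (log2 fold change -2.32, SE 0.53, adjusted p = 0.0401). The falls also took in ste4, an adaptor of the same pathway (-1.79), the G protein gene gpa1 (-1.53), the M-factor exporter gene mam1 (-1.16), the receptor gene map3 (-1.15) and the unit of pac2 (-0.81), which it shares with eta2 and others. The single rise, mfm3, encodes M-factor, the pheromone of h- cells, and had 1.45 and 3.64 CPM at 4.5 h, against 0.470 and 0.201 CPM at 0 h, with a mean count of 22.8 (log2 fold change 2.97, SE 0.60, adjusted p = 0.0242). Other genes make the same pheromone, so these few counts are uncertain. The master regulator gene ste11 was at -1.01 and did not pass (adjusted p = 0.0505). Of the 9 meiotic mRNAs that Mmi1 removes from growing cells 2 rose, mug2 and mei4 (1.60). None fell, also at an unadjusted p under 0.05 and by DESeq2. The mei4 unit, for a meiotic transcription factor, had 61.8 and 70.1 CPM at 4.5 h, against 17.2 and 26.2 CPM at 0 h. Of the 16 mating units mfm3 alone passed without replicate 1 of 4.5 h, and without replicate 2 of 4.5 h none did (6 lower and 1 higher at an unadjusted p under 0.05).

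**Figure D4:**
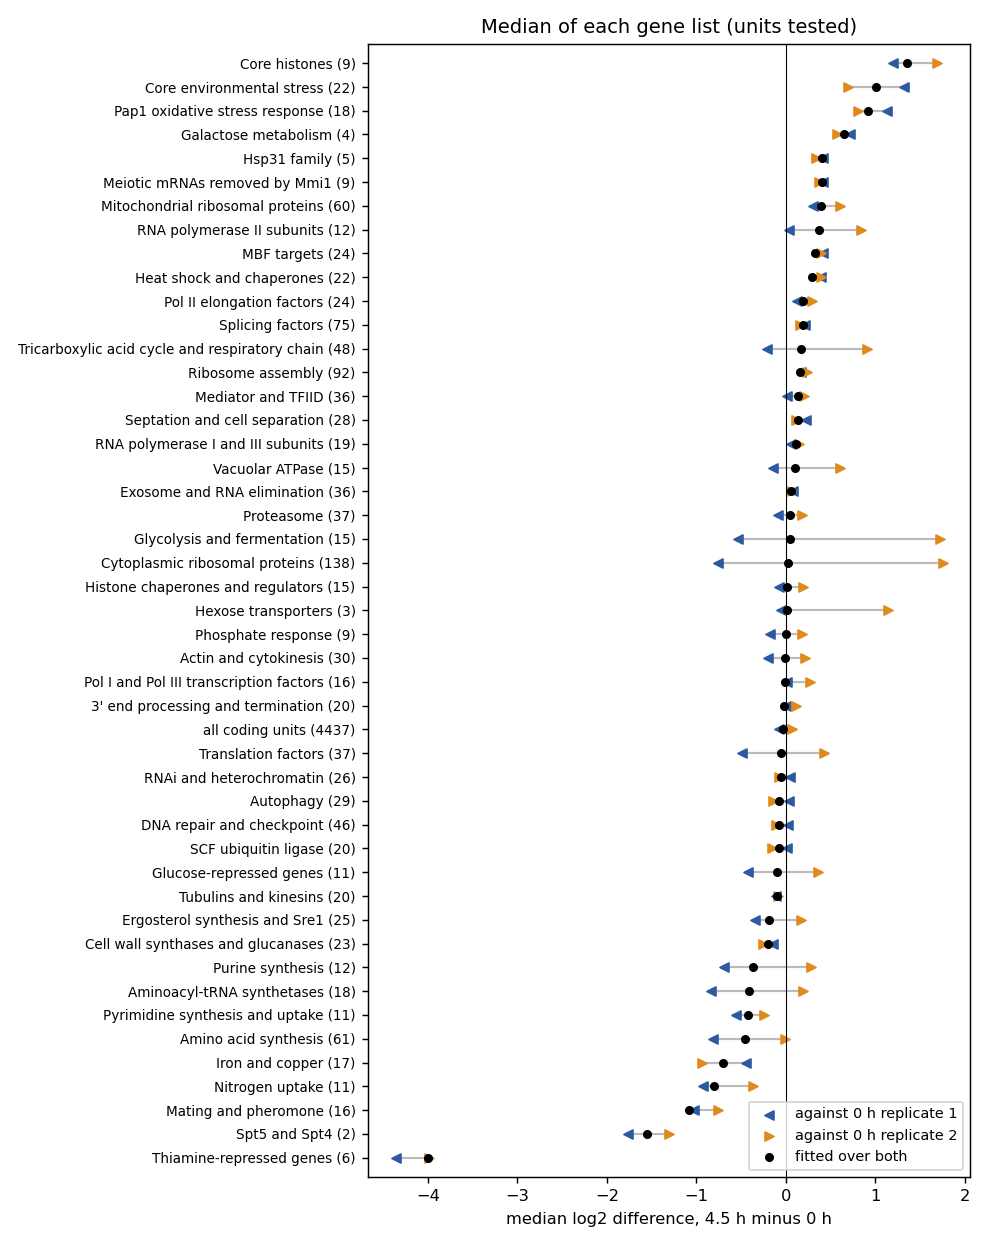
Median log2 difference between 4.5 h and 0 h for each of the 46 gene lists and for all coding units, fitted over both 0 h libraries (black) and against replicate 1 (blue) or replicate 2 (orange) of 0 h alone. Core histones (1.19 and 1.68) and thiamine-repressed genes (-4.36 and -3.99) have both values on one side of 0, whereas ribosomal proteins (-0.76 and 1.76) and glycolysis (-0.53 and 1.72) have values on both sides.

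Several highly transcribed groups had no direction against both 0 h libraries. Of the 138 cytoplasmic ribosomal protein units 3 rose and none fell, beside 7.28% higher and 8.32% lower of all coding units; at an unadjusted p under 0.05 5 were higher and 0 lower, as by DESeq2. The median was 0.03 with both 0 h libraries in the fit, -0.76 against replicate 1 and 1.76 against replicate 2. The 3 that passed, rps2202, rpl3002 and rps1401, are copies of duplicated genes with 0 h libraries closer together than in most of the list: rps2202 had 233 and 227 CPM at 4.5 h, against 97.2 and 92.4 CPM at 0 h (log2 fold change 1.28, SE 0.17, adjusted p = 0.00888). Without replicate 1 of 0 h 132 of the 138 were called higher, and without replicate 2 of 0 h 68 were called lower and 5 higher. The HomolD core CAGTCAC, a known element of these promoters, stands in 126 of the 138 and in 4.71% of all. Glycolysis and fermentation showed the same split, with 1 of 15 lower, none higher (2 at an unadjusted p under 0.05, 2 by DESeq2) and medians of -0.53 and 1.72. The unit that fell was adh4, an alcohol dehydrogenase, with 88.6 and 89.0 CPM at 4.5 h, against 289 and 239 CPM at 0 h (log2 fold change -1.57, SE 0.16, adjusted p = 0.00489). Genes of the tricarboxylic acid cycle and the respiratory chain (1 of 48 higher, 1 lower; -0.21 and 0.91), translation factors (none of 37; -0.50 and 0.43) and aminoacyl-tRNA synthetases (vrs2 lower at -0.72, 1 of 18; -0.84 and 0.19) differed in sign between the 0 h libraries in the same order. So did purine synthesis (none of 12; -0.69 and 0.28). At an unadjusted p under 0.05 3 translation factor units were higher and 1 lower, and DESeq2 called 0 and 1; for purine synthesis the counts were 1 and 1, and by DESeq2 0 and 1. The lowest p among them were those of tif5 at 0.41 and sui1 at 0.74 for translation and of ade5 at 0.58 and ade9 at -0.67 for purines, with adjusted p of 0.0987, 0.111, 0.0689 and 0.0781 by edgeR. In these groups the direction of the median depended on which 0 h library was used.

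Among the genes of the transcription machinery itself few passed. Of 24 elongation factor units other than those of spt5 and spt4, 22 had a positive value, beside 2117 of 4437 over all coding units. Only 1 passed, ell1, a factor that speeds up elongation (0.83, adjusted p = 0.0224). The median of these 24 was 0.19, with 0.12 against replicate 1 and 0.29 against replicate 2 of 0 h. With library totals it was 0.11 and none passed. Of the 12 RNA polymerase II subunits 4 rose: rpb3 (1.14), rpb4 (1.21), rpb7 (0.84) and rpc10 (1.56), a small subunit that RNA polymerases I and III also hold. The rpb3 unit had 148 and 169 CPM at 4.5 h, against 79.3 and 64.5 CPM at 0 h (log2 fold change 1.14, SE 0.16, adjusted p = 0.0107). The list's median was 0.37, with 0.03 against replicate 1 and 0.84 against replicate 2 of 0 h. Of 19 units specific to polymerases I and III 2 rose, rpc11 (1.40) and rpa34 (0.95). The termination exonuclease gene dhp1 (0.86) was the only one of 20 units for termination and 3′ end processing that passed, and tbp1, the TATA-binding protein gene (0.80), the only one of 36 for Mediator and TFIID. Of the 16 transcription factor units of polymerases I and III none passed (3 higher and 3 lower at an unadjusted p under 0.05, 0 and 2 by DESeq2), rrn3 at 0.63 and rrn10 at -0.84 being nearest. No gene of the transcription machinery named here passed without replicate 1 or without replicate 2 of 4.5 h.

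The lists of ribosome assembly, mitochondrial ribosomal proteins and splicing held more rises than falls, and that of RNAi and heterochromatin more falls. In that order 16.3%, 13.3%, 13.3% and 19.2% of their units were called, near the 15.6% of all coding units. Of all coding units 7.28% were higher and 8.32% lower. Of 92 ribosome assembly units 13 rose and 2 fell (median 0.16; 0.17 and 0.24 against each 0 h library). Of those that rose the largest changes were those of rrp14 (1.04) and rrp15 (1.03), of early large-subunit assembly, and utp13 (0.87), of the small-subunit processome. The utp13 unit had 239 and 257 CPM at 4.5 h, against 134 and 139 CPM at 0 h, with little spread inside either time point. The 2 that fell were noc3 (-0.56) and rix1 (-0.53). With library totals 4 ribosome assembly units rose and 1 fell. With both 0 h libraries in the fit, 8 of the 60 mitochondrial ribosomal proteins rose and none fell, also at an unadjusted p under 0.05 and by DESeq2. The median was 0.39, with 0.30 and 0.60 against each 0 h library. The largest change was that of mrps16, with 233 and 276 CPM at 4.5 h, against 77.4 and 78.7 CPM at 0 h (log2 fold change 1.71, SE 0.16, adjusted p = 0.0046). Splicing factors had 8 of 75 higher and 2 lower, led by the Sm and Lsm ring genes smd3 (2.01) and lsm4 (1.39). Their median was 0.19, with 0.22 and 0.16 against each 0 h library. With only the 0 h and 4.5 h libraries in the fit, 2 mitochondrial ribosomal units and 4 splicing units rose and none fell. Of 36 units for the exosome and RNA elimination 2 rose and none fell (4 and 4 at an unadjusted p under 0.05, 2 and 3 by DESeq2; 2 rises and 6 falls without replicate 1 of 0 h and 4 and 7 without replicate 2), lsm1 (1.21) and ctr1 (0.93). RNAi and heterochromatin genes had 1 of 26 higher, hrr1 (0.90), and 4 lower, of which clr2, a silencing factor, had 24.8 and 25.6 CPM at 4.5 h, against 68.8 and 78.2 CPM at 0 h (log2 fold change -1.54, SE 0.15, adjusted p = 0.00488). Among the other falls were ers1 (-0.96) and rik1 (-0.58). The median of the RNAi and heterochromatin list was -0.05, with 0.05 against replicate 1 and -0.08 against replicate 2 of 0 h. Its sign thus depended on the 0 h library. Of these RNA processing and ribosome genes lsm4 and mrps16 alone passed without replicate 1 of 4.5 h, and without replicate 2 of 4.5 h none did.

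DNA repair and checkpoint genes had 4 of 46 units higher and 5 lower, close to the shares of all coding units; leaving out replicate 1 of 0 h gave 5 rises and 17 falls, and leaving out replicate 2 of 0 h 10 and 8. The mismatch repair gene msh6 rose, with 510.4 and 565 CPM at 4.5 h, against 236 and 249 CPM at 0 h (log2 fold change 1.15, SE 0.16, adjusted p = 0.00971), and the break repair gene rad50 fell, with 78.9 and 91.9 CPM at 4.5 h, against 149 and 236 CPM at 0 h (log2 fold change -1.17, SE 0.27, adjusted p = 0.0338). The other rises were the unit of mus81 (0.86), which it shares with mrpl4, rad1 (0.71) and smc6 (0.62), the last of which did not pass against both 0 h libraries alone, and the other falls rad8 (-1.07), rad9 (-0.94), rad16 (-0.86) and rad15 (-0.63). Of 20 SCF ubiquitin ligase units, the machinery that the degron uses, 1 rose, pof8 (0.62), and 3 fell, the F-box genes pof5, pof10 and pof14 (-1.38, -1.34 and -1.05). The pof10 unit had 61.8 and 48.5 CPM at 4.5 h, against 140.4 and 139 CPM at 0 h (log2 fold change -1.34, SE 0.17, adjusted p = 0.00747). Of 37 proteasome units, which degrade such marked proteins, 1 rose, the assembly factor gene ump1 (0.62), and 1 fell, mts4 (-0.63). Of these repair and degradation genes pof10 alone passed without replicate 1 of 4.5 h, and without replicate 2 none did.

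Growth and cell shape lists held few calls, none of which passed without replicate 1 or 2 of 4.5 h. Septation genes had 3 of 28 higher, the kinase gene ark1 (1.05), the ring scaffold gene cdc15 (0.84) and chs2 (0.68), and 2 lower, the septin gene spn3 (-0.80) and the glucanase gene eng1 (-0.62). Cell wall genes had 3 of 23 lower, exg3 (-1.32), mok11 (-0.95) and eng1, and 1 higher, chs2. Actin and cytokinesis genes had 2 of 30 lower, the myosin light chain gene rlc1 (-1.39) and the actinin gene ain1 (-1.06). The spindle bundling gene ase1 (-0.61) was the only one of 20 tubulin and kinesin units that passed. Ergosterol synthesis had 1 of 25 higher, spo9 (0.96), and 1 lower, erg7 (-0.82). Single calls were also made for the vacuolar ATPase (vma9, 0.63, 1 of 15) and autophagy (atg15, -0.58, 1 of 29). Sugar genes gave few: gal10 (1.62) and gal1 (0.86) rose among 4 galactose units, ght8 (1.26) among 3 hexose transporters, and of 11 glucose-repressed units gut2 rose (0.84) while adh4 and gld1 fell. Medians against replicate 1 and replicate 2 of 0 h differed in sign for glucose-repressed genes (-0.42 and 0.36) and ergosterol synthesis (-0.35 and 0.17). So did those of actin and cytokinesis (-0.20 and 0.21), the vacuolar ATPase (-0.14 and 0.61) and hexose transporters (-0.06 and 1.14). Of the 9 phosphate units none passed (1 higher at an unadjusted p under 0.05 and 1 by DESeq2), tgp1 being nearest with 342 and 375 CPM at 4.5 h, against 226 and 120.3 CPM at 0 h (log2 fold change 1.05, SE 0.31, adjusted p = 0.0659).

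**Figure D5:**
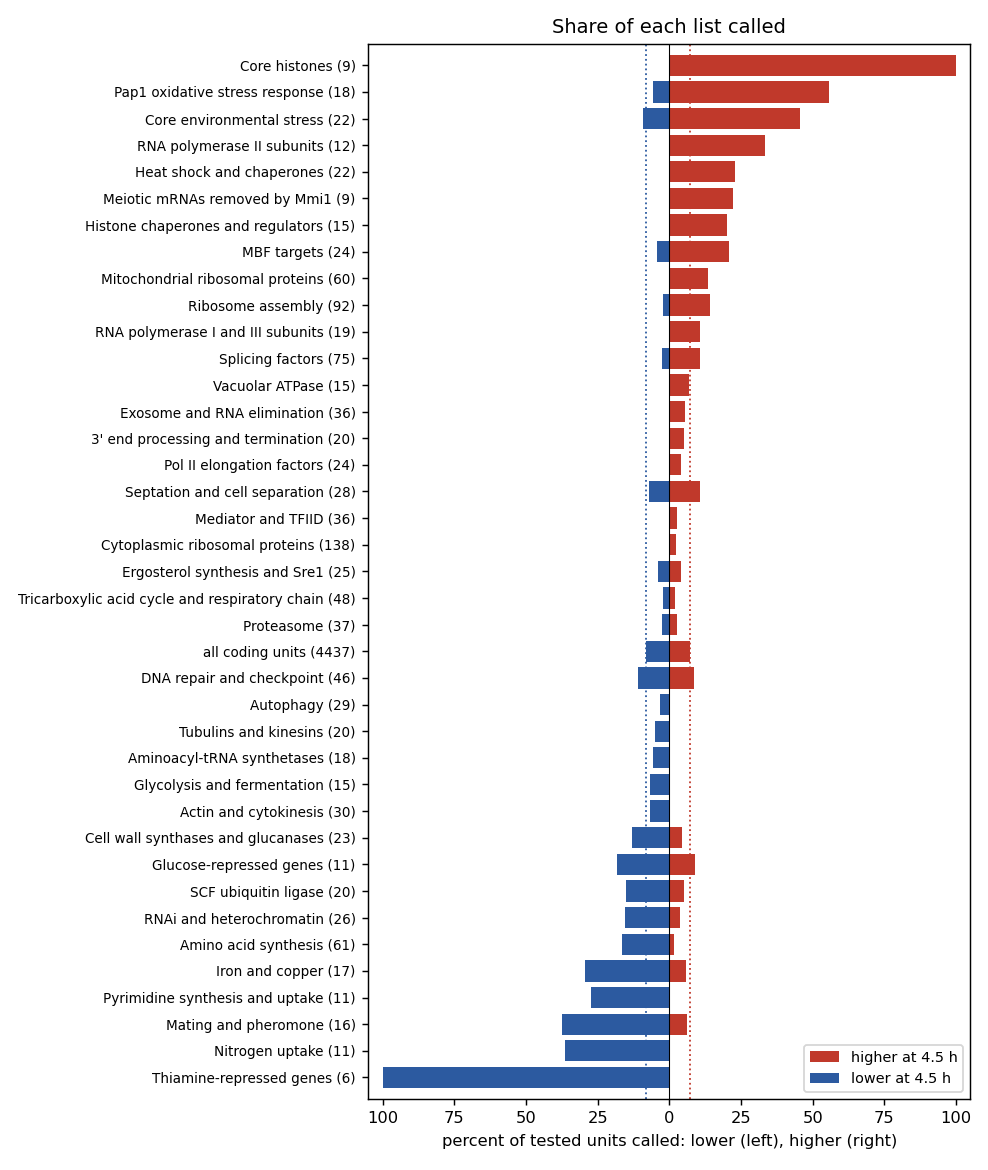
Percent of the tested units of each list that were called higher (red, to the right) or lower (blue, to the left) at 4.5 h, for lists of at least 6 tested units with any call; dotted lines mark the shares of all coding units, 7.28% higher and 8.32% lower. Core histones fill the whole bar on the higher side (9 of 9) and thiamine-repressed genes on the lower side (6 of 6).

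The share of coding units called varied with how the units are built. With the units split by length into 3 equal groups, of the shortest, those of up to 1463 bases, 10.3% were higher and 5.00% lower. Of the longest, those of at least 2333 bases, 4.94% were higher and 9.26% lower. The shortest group was also the one whose 0 h libraries differed most, with a median difference of 0.32 between them. Of units that hold 1 gene, those with 4 or more introns had 2.42% higher and 12.8% lower (7 and 37 of 289), and those with no intron 7.81% higher and 9.36% lower (161 and 193 of 2062). Units that hold more than 1 gene were left out of these counts. The median of the units with 4 or more introns was -0.18, with -0.30 against replicate 1 and -0.01 against replicate 2 of 0 h. By level, the lowest of 3 equal groups had 7.84% higher and 11.0% lower, and the highest 6.76% higher and 4.94% lower. By the half-life score in the authors' deposited table, used here only to rank units, the group with the longest lives lay at -0.31 against replicate 1 and 0.39 against replicate 2 of 0 h. The group with the shortest lives lay at 0.08 and -0.17. These shares are descriptions, since length, introns, level and gene family go together.

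Of the 749 noncoding units tested, most of which have no known role, 197 rose and 36 fell, with a median of 0.65 (0.71 against replicate 1 and 0.54 against replicate 2 of 0 h). Called in either direction were 31.1% of them, beside 15.6% of coding units and 17.9% of all units. Of all coding units 7.28% were higher and 8.32% lower. Where a noncoding unit lay opposite a coding unit, 133 of 413 antisense units rose and 14 fell (median 0.88), while 32 of their 382 coding partners rose and 46 fell (median -0.13). Of the 336 noncoding units in no such pair 64 rose and 22 fell (median 0.31). In 139 of 425 pairs the antisense unit rose. Among pairs whose coding unit was lower, the antisense unit was higher in 20, not called in 31 and lower in 1. Among pairs whose coding unit was higher, these counts were 12, 18 and 3, so antisense rises were about as frequent in both. Genes named above with a lower coding unit and a higher antisense unit are opa3, with its antisense unit at 2.11, clr2, with 2 antisense units at 3.07 and 2.97, rik1 (2.41), ctr4 (1.29), noc3 (2.48), rad8 (1.16), met3 (1.05), thi201 (0.88) and SPBC1604.04 (2.75). Without replicate 1 or 2 of 4.5 h 34 and 9 antisense units rose and 2 and 1 fell, with medians of 0.88 and 0.81, and of all noncoding units 50 and 17 rose and 3 and 1 fell. In 107 pairs the antisense unit rose and the coding unit did not pass, and in 12 both rose. Those 12 include htb1, with its antisense unit at 2.59, hht3 (1.72) and rrp15 (1.23). The 3 pairs with a higher coding unit and a lower antisense unit include ams2, with its antisense unit at -2.73, and gut2 (-1.92). Whether the counting used strand is not given in the sources used here, so reads of a gene and of its antisense unit may not be fully separate.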

How the data were processed

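Libraries of purified, 4-thiouracil-labelled RNA were prepared with an Ovation Universal RNA-Seq kit, per the labels' protocols. The submitters' processing notes name STAR 2.3.0, SAMtools and ASM294v2. Each deposited file gives raw read counts, whole numbers, for every transcription unit. Not given in the sources used here are the counter, its strand setting and how it treated reads with several matches. The authors' deposited table lists 5484 units with coordinates, classes, genes and introns, and a half-life score with no stated unit, used only to rank units. Coding units hold at least 1 protein-coding gene of the reference; 22 others of the authors' coding classes were set aside. Symbols and products come from the reference, in which 5028 of 5062 identifiers (99.3%) matched, and 4902 of 4912 introns (99.8%) had the usual splice site bases. Its assembly, ASM294v3, gave the promoters, from 250 bases before to 50 after the gene start.

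Counts were tested with edgeR 4.0.16 in R 4.3.3: filterByExpr, TMM scaling and 1 robust quasi-likelihood fit over the 6 libraries whose only term was time point, which leaves 3 residual degrees of freedom. P-values were adjusted by Benjamini-Hochberg over 5208 units, and the threshold was 0.05, two-sided. The p-values measure the spread between these libraries. Differences against a single 0 h library are of log2 CPM (prior count 2), and the separate fits leave out the other 0 h library. The steps were run on simulated counts in which each unit had the same spread at all time points. The 0 h libraries here were further apart than those of 4.5 h, so that run could not check the calls under such unequal spread. Named genes are spt5, spt4 and those of the strain's modifications; the 15 largest rises and 15 largest falls that have a symbol, passed the test, averaged at least 50 counts and whose groups do not overlap, ranked by the smaller difference from the 0 h libraries; called members of each list, of which the text gives a selection, or the 2 with the lowest p; and the 5 coding units furthest apart between the 0 h libraries. The members, the 46 lists and the tests were chosen with earlier results of these data known, and the 18 product word groups after list counts were seen. A count of 0 allows up to 3 counts, or 0.221 and 0.206 CPM in the 4.5 h libraries and 0.103 and 0.0841 CPM in those of 0 h, for counting error only. Alternatives were DESeq2 1.42.0, its size factors in edgeR, library totals, TMM without ribosomal protein units, no filter, a mean count of at least 50, only the 0 h and 4.5 h libraries, coding units only, a replicate block and each library left out in turn. Python 3.11.15, pandas 2.3.3 and matplotlib 3.10.9 were used for tables and figures.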

Additional observations from a re-analysis of the deposited data

How the results depend on the processing

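Against 932 units called (526 higher, 406 lower) and 323 higher and 369 lower coding units, DESeq2 called 630 units lower, of them 576 coding, and library totals 206 coding units higher. With only the 0 h and 4.5 h libraries, and so fewer residual degrees of freedom, 363 units passed, 216 higher and 147 lower, of them 102 and 134 coding. Leaving out 1 library in turn gave 48 to 2186 units called, 30 to 1100 higher and 18 to 1086 lower, and 11 to 859 coding units higher and 17 to 1043 lower; with 1 library left at a time point, its spread is taken from the other time points. The fewest came without a 4.5 h library and the most without a 0 h library; the cause was not tested. With coding units only, where no noncoding unit is tested, 591 passed, 253 higher and 338 lower. The other settings kept these counts within 1.5 times, and every called unit that was named kept its direction under every setting in which it was tested. Such units were chosen by their calls in the same counts, so a change of direction was unlikely from the start.

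Reversals were seen in units that had not passed. Leaving out 1 library in turn gave log2 fold changes that ranged for skp1 from -0.86 to 0.45, spt4 from -0.070 to 0.19, rpp202 from -2.15 to 1.73, rpp201 from -1.12 to 2.28, rpl3802 from -1.10 to 2.22, rps1002 from -1.45 to 1.81 and for rpl4301 from -0.47 to 2.75, the ends coming from the fits without 1 library of 0 h. In the fit with the replicate number as a block, rpp201 was at 0.62, rpl3802 at 0.53 and rps1002 at 0.10, while 1072 units passed in all, 391 coding units higher and 405 lower. There 8 of the 181 called units of the naming rule did not pass and 2 translation factor units rose. Deviations of libraries with the same number correlated at 0.21 between 4.5 h and 0 h, 0.46 between 2.5 h and 0 h and 0.10 between 4.5 h and 2.5 h, but the labels do not tie the numbers to shared cultures and there are 2 numbers only, so the numbers were not taken to pair the samples.

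With 2 libraries a time point, small changes of little-counted units were beyond reach, and the depth of 4.5 h was less than that of 0 h. The lists overlap and the members of a list share regulators, so their counts are not independent. Searching only the bases before the gene start left the counts of list promoters with each motif the same, with AACCCT in 8.29% of all promoters.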
